A study of Mus musculus with 5 samples.

Results

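The macrophage growth and survival factors examined here are 7 secreted or membrane-bound ligands with which lymphatic endothelium can support the macrophages of lymph node sinuses: Csf1, Il34, Csf2, Csf3, Kitl, Gas6 and Pros1. They were chosen by name, with earlier results of these data known. All 7 were found among the 27843 genes of the count table and passed the filter on low counts that left 15874 genes for testing. Messenger RNA was counted in lymphatic endothelial cells (LECs) sorted from lymph nodes of 8-week-old C57BL/6 mice as CD45-, TER119-, CD31+ and podoplanin+ cells. The 3 control libraries came from Rankl flox/flox mice and the 2 knockout libraries from Ccl19 Cre Rankl flox/flox mice, so both groups carry the floxed alleles of the gene for RANKL. The Cre is driven by Ccl19, a chemokine gene of fibroblastic stromal cells. By this design the deletion is aimed at stroma and not at the sorted LECs, and where it took place was not measured here. Cre itself was present in the knockouts alone, and its effect and that of the deletion cannot be told apart. The comparison asks how LEC gene expression depends on stromal RANKL.

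LECs form the walls of the sinuses in which subcapsular and medullary macrophages sit. CSF1 and IL-34 are the 2 ligands of the receptor CSF1R, on which most tissue macrophages depend for growth and survival. CSF2 (GM-CSF) and CSF3 (G-CSF) drive the growth of myeloid cells, and KITL (stem cell factor) supports progenitors and mast cells through KIT. GAS6 and protein S (the product of Pros1) are vitamin K-dependent proteins. They bridge phosphatidylserine on dying cells to receptors of the group TYRO3, AXL and MERTK on the cells that engulf them.

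RANKL signals through RANK to NF-kappaB, whose dimers bind kappaB sites. Csf1 had the lowest unadjusted p of the members but did not pass at an adjusted p under 0.05. Its promoter is shown because it holds a match to the kappaB consensus. The promoter of Csf2, whose values overlapped between the groups, is shown beside it. Each line gives the 250 bases before the transcription start in RefSeq (build GRCm38.p6), 5′ to 3′ on the strand of the gene, with the kappaB match in capitals.
Csf1 (chr3:107760470-107760719, minus strand): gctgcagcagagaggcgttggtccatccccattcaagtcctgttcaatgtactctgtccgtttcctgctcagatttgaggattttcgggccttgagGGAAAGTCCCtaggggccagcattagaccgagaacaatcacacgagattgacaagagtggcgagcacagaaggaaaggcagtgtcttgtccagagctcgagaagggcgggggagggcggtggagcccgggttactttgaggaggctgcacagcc
Csf2 (chr11:54249900-54250149, minus strand): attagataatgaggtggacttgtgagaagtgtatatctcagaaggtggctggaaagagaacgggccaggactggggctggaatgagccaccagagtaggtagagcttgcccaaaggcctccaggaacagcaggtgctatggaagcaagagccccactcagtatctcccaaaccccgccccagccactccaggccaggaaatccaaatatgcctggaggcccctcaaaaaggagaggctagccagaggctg
The match in Csf1 covers positions -154 to -145 from the start and reads as the consensus on the opposite strand. Both strands were searched for the kappaB consensus, for the AP-1 site TGANTCA and for TATAAA. Promoter sequences were matched by symbol for 5 of the 7 members, Csf1, Csf2, Kitl, Gas6 and Pros1. Among these, the kappaB match in Csf1 and TATAAA at -25 to -20 in Kitl were the matches found. A kappaB match was present in 3.9% of 32851 promoter windows of this length, TGANTCA in 6.75% and TATAAA in 12.4%. Such a match describes the letters and does not show that a factor binds there. The start of Csf2 in GENCODE is base 54249667 on the minus strand, which lies outside the window shown. That of Gas6, base 13494490 on the minus strand, also lies outside its window (chr8:13494536-13494785). The bases between these starts and the windows were not searched, so a site there would be missed. The start of Kitl, base 100015630 on the plus strand, lies inside its window (chr10:100015571-100015820), and the TATAAA match lies past it. No promoter sequence was at hand for Csf3 and Il34, the other members with an unadjusted p under 0.05. Whether NF-kappaB has a part in the level of any member was not tested.

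Library totals were 52839375 to 70171307 counts, so that 52 to 71 reads made 1 CPM (a count scaled to library size). The 8 LEC markers were abundant in both groups but moved in opposite directions. Of these, 2 were higher, 1 lower and 5 not called, where 3.25% of all tested genes were higher and 3.99% lower. Prox1, the transcription factor that defines LEC identity, fell from 1459 to 868 CPM (means of controls and knockouts), 0.595 times the control level (log2 fold change -0.75 ± 0.11, SE, adjusted p = 0.019 by edgeR's quasi-likelihood test). The chemokine gene Ccl21a, which has near-identical copies that make its level uncertain, rose 13.8-fold. It had 28.9, 34.0 and 24.2 CPM in controls and, unlike each other, 661 and 142 CPM in knockouts 1 and 2. Mmrn1 rose 2.94-fold, while Lyve1 had means of 4531 and 3052 CPM in controls and knockouts and did not pass. Whether these markers have a part in the values of the ligands was not tested. Tnfsf11, which encodes RANKL, had 27, 13 and 9 reads in controls and 9 and 0 in knockouts. It lay near the detection limit, and 0 reads allow up to 0.0516 CPM in that library, counting error only. Tnfrsf11a, which encodes RANK, averaged 220 ± 0.635 CPM over the 3 controls and 225 ± 44.1 CPM over the 2 knockouts (SD). The knockout libraries differed from each other more than the controls did for several members, and values without each library are given where they change a result. Nothing in the labels says how many animals made a library, so p-values measure only the spread between these libraries.

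Per length, 5 of the 7 ligands were among the more abundant transcripts of these cells, and Il34 was scarce. The level was taken as CPM per kb of annotated exon, given as mean ± SD over the 3 controls. It was 340 ± 80.1 for Csf3, 273 ± 29.5 for Csf1, 204 ± 15.5 for Gas6, 163 ± 0.457 for Pros1, 86.6 ± 20.1 for Csf2, 16.7 ± 2.84 for Kitl and 0.615 ± 0.275 for Il34. The control ranges of neighbours in this order did not overlap, except those of Csf3 (267 to 426) and Csf1 (246 to 304). In the knockouts Csf3 was again first, at 540 and 682 CPM per kb, and was clear of the other members. Csf1 (185 and 195), Pros1 (192 and 171) and Gas6 (101 and 216) overlapped there, followed by Csf2 (79.4 and 97.3), Kitl (10.5 and 15.8) and Il34 (1.37 and 1.32). Among 17207 genes with a read in every library, Csf3 lay between the percentiles 99.2 and 99.7 over the 5 libraries, Csf1 between 98.6 and 99.3, Csf2 between 96.2 and 97.6, and Il34 between 28.3 and 45.6. With the length of the longest transcript in place of all exons, Csf1 stood at 345 CPM per kb in controls, above Csf3 at 340, and Pros1 at 202 beside Gas6, while Csf3 remained first in the knockouts at 611 against 240 for Csf1.

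**Figure D1:**
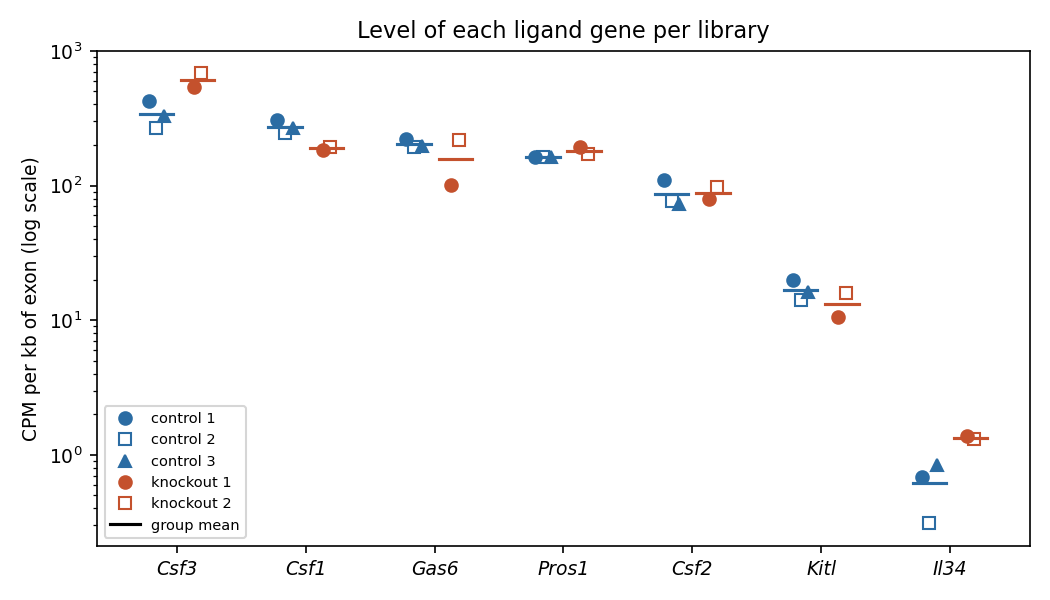
Level of each ligand gene in CPM per kb of exon (vertical axis, log scale), 1 point per library (3 controls in blue, 2 knockouts in red) with a bar at the group mean. Csf3 lies highest in the knockouts, at 540 and 682, and overlaps Csf1 in the controls, whereas Il34 lies lowest, with 1.37 as its highest value.

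Groups were compared by a quasi-likelihood test in edgeR, with p-values adjusted over all genes by the Benjamini-Hochberg method. At an adjusted p under 0.05, 0 of the 7 ligands rose and 0 fell, where 7.24% of all tested genes passed, 3.25% of them higher and 3.99% lower. At an unadjusted p under 0.05 there were 3, Csf1 downward and Csf3 and Il34 upward, against 4198 of the 15874 tested genes. DESeq2 called 1 higher (Csf3) and 1 lower (Csf1), where it called 1248 higher and 1459 lower over all tested genes. Limma-voom called 0 higher and 1 lower (Csf1), where it called 546 higher and 657 lower over all tested genes. In 4 of the 7, both knockout libraries lay on the same side of all controls (Csf1 below, and Il34, Csf3 and Pros1 above), against 45.4% of all tested genes (22.8% with both knockouts above and 22.5% below). The median log2 fold change, knockout minus control, was 0.03 over the 7 and 0.00 over all tested genes. A p above the threshold with 3 and 2 libraries does not show that levels were alike.

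**Figure D2:**
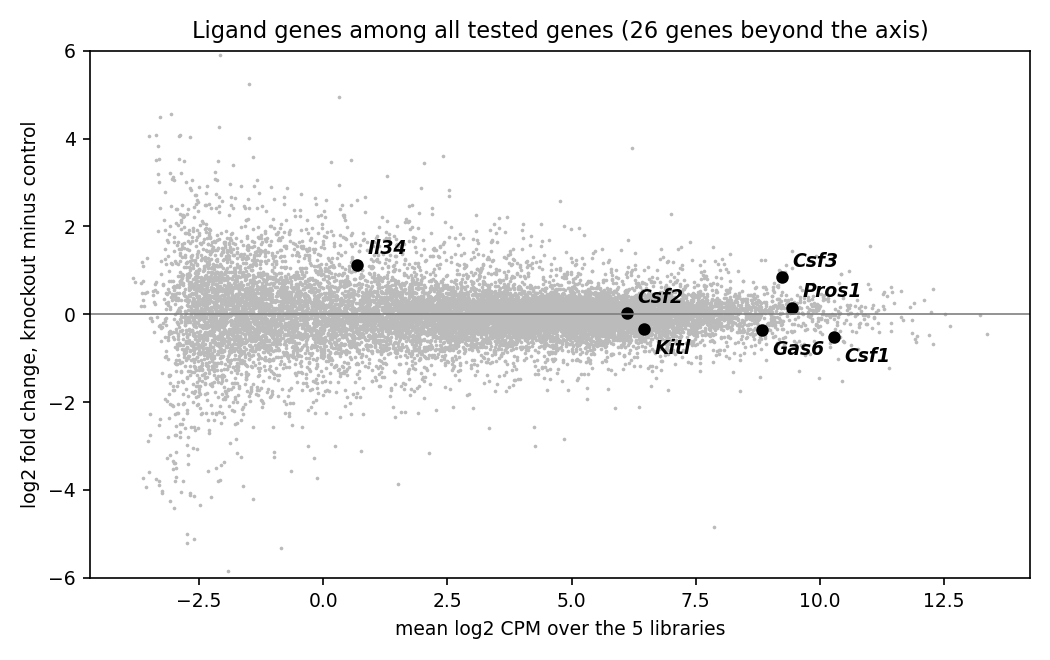
Log2 fold change, knockout minus control (vertical axis), against mean log2 CPM over the 5 libraries (horizontal axis) for every tested gene in grey, with the 7 ligands in black. Csf1 at -0.53 and Csf3 at 0.84 lie toward the edges of the cloud at high expression, Il34 lies at low expression, and 26 genes fall beyond the axis limits of 6.

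Csf1, the main growth factor of tissue macrophages (ENSMUSG00000014599, mm10 chr3:107741048-107760469), was lower in both knockout libraries, just short of the threshold. It stood at 1608, 1299 and 1421 CPM in controls 1, 2 and 3 and at 975 and 1028 CPM in knockouts 1 and 2. The groups did not overlap, and the knockouts lay close together. The log2 fold change was -0.53 ± 0.12 (SE, adjusted p = 0.052 by the edgeR test), 0.694 times the control level. The choice of test and filter decided the call at nearly the same size: the adjusted p was 0.02 without a filter on low counts, 0.047 with a filter at 1 CPM, 0.044 with limma-voom, 0.049 without robust estimation and 0.00051 with DESeq2. It was 0.1 with an offset that took out trends with gene length and GC content, and 0.058 to 0.17 with a library left out. In sorted pools, less RNA per cell and fewer of the cells that express a gene cannot be told apart.

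Il34, the other ligand of CSF1R (ENSMUSG00000031750, mm10 chr8:110741829-110805924), had few reads, and more of them in the knockouts. It had 96, 38 and 86 reads in the controls and 147 and 150 in the knockouts, which is 1.35, 0.609 and 1.66 CPM against 2.68 and 2.58 CPM. Both knockouts lay above all controls, and control 2 was the lowest library. Its log2 fold change was 1.13 ± 0.42 (SE, adjusted p = 0.15 by the edgeR test). Antisense genes share 75 and 22 bases with its exons, at most 4 reads each in any library, and the library kits do not mark strand. Per kb of exon, Csf1 exceeded Il34 by 319- to 791-fold in the controls and by 135- and 148-fold in the knockouts.

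Csf3, the growth factor of neutrophils (ENSMUSG00000038067, mm10 chr11:98701263-98703629), was higher in both knockouts, again just short of the threshold. It stood at 602, 377 and 464 CPM in controls 1, 2 and 3 and at 763 and 964 CPM in knockouts 1 and 2. The groups did not overlap, and the spread within each was wide. The log2 fold change was 0.84 ± 0.20 (SE, adjusted p = 0.055 by the edgeR test), 1.79 times the control level. The adjusted p was 0.045 with a filter at 1 CPM and 0.00087 with DESeq2, and 0.12 with the length and GC offset, where the log2 fold change was 0.65.

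Csf2 (ENSMUSG00000018916, mm10 chr11:54247271-54249667), whose product acts on macrophages, dendritic cells and granulocytes, overlapped between the groups. The controls had 87.7, 61.7 and 58.4 CPM and the knockouts 63.5 and 77.8 CPM. Its log2 fold change was 0.03 ± 0.19 (SE), and the sign changed with the library left out (-0.13 without knockout 2 to 0.24 without control 1). The antisense gene Gm12223 shares 12% of the exon bases of Csf2 and had 6 to 25 reads, against 3034 to 6228 for Csf2.

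Kitl (ENSMUSG00000019966, mm10 chr10:100015630-100100416), which encodes stem cell factor, also overlapped between the groups. Its values were 117, 83.5 and 95.6 CPM in controls and 62.0 and 93.5 CPM in knockouts. Knockout 1 was the lowest library, and knockout 2 lay within the control range. The log2 fold change was -0.34 ± 0.21 (SE, adjusted p = 0.34 by the edgeR test), -0.08 without knockout 1 and -0.67 without knockout 2.

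Gas6 (ENSMUSG00000031451, mm10 chr8:13465374-13494490), the ligand of all 3 TAM receptors (TYRO3, AXL and MERTK), differed between the knockout libraries more than between the groups. The controls had 565, 492 and 503 CPM, knockout 1 had 256 CPM and knockout 2 had 550 CPM. Knockout 1 lay below all controls, and knockout 2 lay within their range. Its log2 fold change was -0.37 ± 0.29 (SE, adjusted p = 0.47 by the edgeR test). Without knockout 1 it was 0.08. Without knockout 2 it was -1.03 and passed the test (adjusted p = 0.0067), with the spread taken from the controls alone.

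Pros1 (ENSMUSG00000022912, mm10 chr16:62854307-62929346), which encodes protein S, an anticoagulant cofactor as well as a TAM ligand, was the steadiest of the 7. The controls had 669, 669 and 666 CPM and the knockouts 784 and 697 CPM. Both knockouts lay above all controls, by a small margin in knockout 2. Knockout minus control was 0.15 ± 0.10 on the log2 scale (SE, adjusted p = 0.38 by the edgeR test) and ranged from 0.06 without knockout 1 to 0.23 without knockout 2. Per kb of exon the ratio of Gas6 to Pros1 was 1.35, 1.18 and 1.21 in controls, 0.524 in knockout 1 and 1.27 in knockout 2. With the longest transcript as length the ratio was 1.09, 0.954 and 0.979 in controls and 0.424 and 1.02 in knockouts. Which of the pair was more abundant therefore depended on the length used in controls 2 and 3, whereas knockout 1 had the lowest ratio with both lengths.

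**Figure D3:**
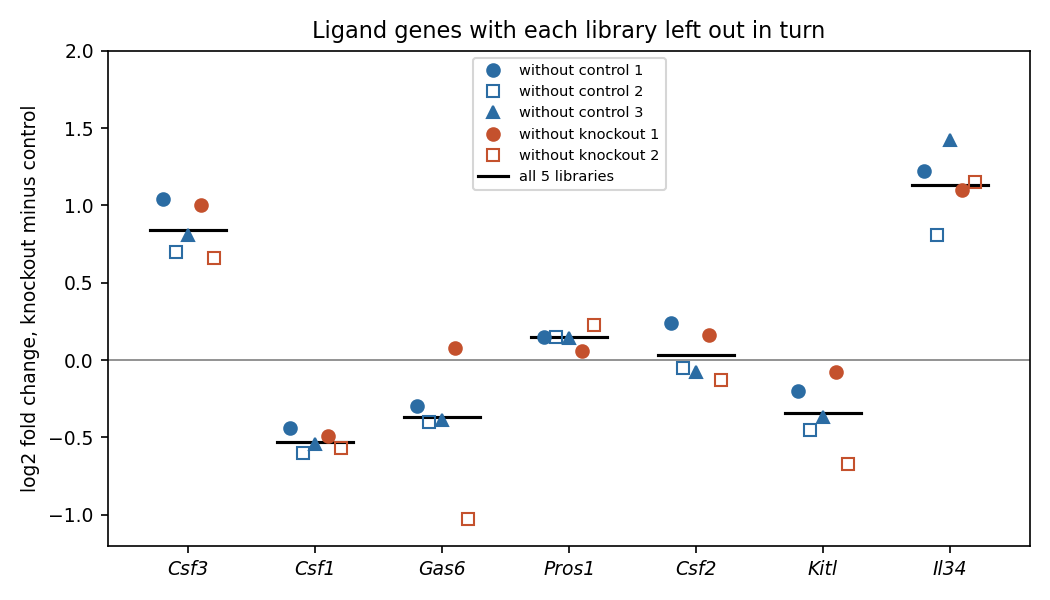
Log2 fold change, knockout minus control (vertical axis), of the 7 ligands with all libraries (black bar) and with each library left out in turn (points, coloured by the group of the library left out). Csf1 stays between -0.60 and -0.44 and Csf3 between 0.66 and 1.04, while Gas6 runs from -1.03 without knockout 2 to 0.08 without knockout 1.

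Several receptors of these ligands fell in the same libraries. Of 11 receptor genes, 0 rose and 5 fell, where 3.99% of all tested genes fell. The median log2 fold change was -0.65 against 0.00 over all tested genes. This list was chosen with earlier results of these data known, so setting it beside all genes is a description and not a test. At an unadjusted p under 0.05, 0 were higher and 6 lower, where 4198 of the 15874 tested genes passed in either direction. DESeq2 and limma-voom each called 0 higher and 5 lower, where they called 1459 and 657 of all tested genes lower. The 5 include Csf2rb2, a second beta chain gene of mice whose product serves the IL-3 receptor, and IL-3 is not among the 7 ligands. Csf2rb2 fell from 548, 386 and 399 CPM in controls to 159 and 201 CPM in knockouts. Its log2 fold change was -1.30 ± 0.19 (SE, adjusted p = 0.019 by the edgeR test). Csf2rb, the beta chain shared by the receptors of CSF2, IL-3 and IL-5, fell from 208, 178 and 208 CPM to 109 and 143 CPM (log2 fold change -0.65 ± 0.14, SE, adjusted p = 0.046 by the same edgeR test). These genes are near-identical neighbours, and how the counting split their reads is not given, so their levels are uncertain.

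Csf2ra, the alpha chain that binds CSF2 itself, had 2.96, 3.56 and 3.12 CPM in controls and 1.53 and 2.54 CPM in knockouts, and did not pass (log2 fold change -0.65 ± 0.29, SE, adjusted p = 0.21, edgeR quasi-likelihood). Per kb of exon Csf2rb exceeded it by 19.7- to 27.9-fold over the 5 libraries. Kit, the receptor of KITL, fell from 50.2, 38.1 and 36.9 CPM to 22.2 and 23.3 CPM (log2 fold change -0.88 ± 0.15, SE, adjusted p = 0.026 by the same edgeR test). Sdc1, a heparan sulfate proteoglycan that also binds IL-34, fell from 169, 112 and 142 CPM to 54.8 and 60.2 CPM (log2 fold change -1.29 ± 0.18, SE). Csf1r, the receptor of CSF1 and IL-34, had 123, 69 and 87 reads in controls and 20 and 8 in knockouts (log2 fold change -2.58 ± 0.53, SE, adjusted p = 0.038, edgeR quasi-likelihood). The 3 TAM receptors did not pass: Mertk stood at 26.0 to 30.9 CPM in controls and 28.7 and 26.6 in knockouts, and its log2 fold change was -0.06 ± 0.11 (SE). Axl stood at 0.54 ± 0.27 and Tyro3 at -0.58 ± 0.23 on the log2 scale. The number of receptor genes that fell was 3 without control 1, 1 without control 2 (Sdc1) and 0 without control 3, where 11 genes were called over the whole table, and 5 without either knockout library. Without knockout 1 the 5 held Tyro3 in place of Csf2rb (adjusted p = 0.06, edgeR). The call of Csf2rb was also lost without each control and with the length and GC offset (adjusted p = 0.14, edgeR), where 4 receptor genes fell.

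**Figure D4:**
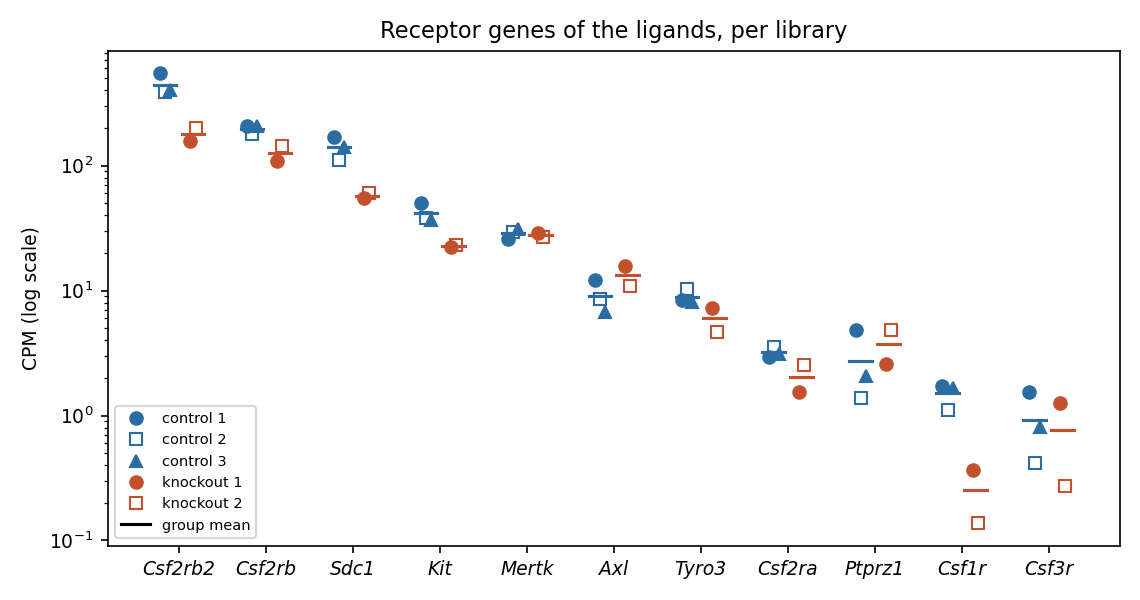
CPM (vertical axis, log scale) of the 11 receptor genes, 1 point per library with a bar at each group mean. The knockout values of Csf2rb2, Csf2rb, Sdc1, Kit and Csf1r lie below all controls, as do those of Csf2ra and Tyro3, which were not called. Both knockouts lie below all controls in 22.5% of all tested genes. The knockout values of Mertk (28.7 and 26.6) lie among its controls.

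**Figure D5:**
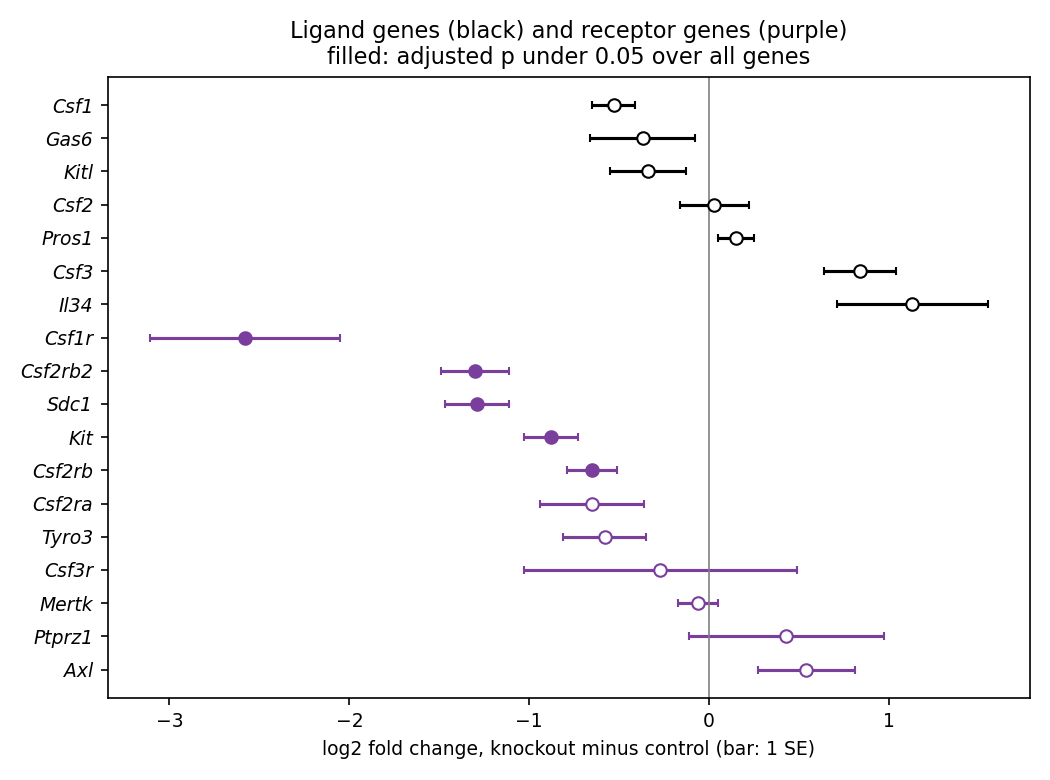
Log2 fold change, knockout minus control (horizontal axis), with bars of 1 SE, for the 7 ligand genes in black and the 11 receptor genes in purple, filled where the adjusted p was under 0.05. The ligand points are all open and run from -0.53 for Csf1 to 1.13 for Il34, and the 5 filled points are receptors at -0.65 to -2.58.

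Markers of myeloid cells, which carry several of these receptors, were low in the sort. The 18 sinus macrophage markers summed to 50.3 to 54.7 CPM in controls and 41.8 to 44.7 CPM in knockouts. Of 15 tested, 1 was higher and 2 lower (Adgre1 up, Csf1r and Mpeg1 down), against 3.25% and 3.99% of all tested genes. Mertk, at 26.0 to 30.9 CPM, made up the largest part of the macrophage sum, and Csf1r is in both lists. Cd163 had 0 reads in all libraries, which allows 0.0422 to 0.0577 CPM, and Siglec1 had 21 to 43 reads. The 9 granulocyte and mast cell markers in the table summed to 38.8 to 52.1 CPM in controls and 23.7 to 24 CPM in knockouts. Most of that sum was Kit, itself a receptor that fell, and Ly6g had 0 reads. Without Kit the sums were 1.92, 0.641 and 10.1 CPM in controls and 1.79 and 0.430 CPM in knockouts, and the groups overlapped. Without Csf1r and Mertk the sinus macrophage sums were 17.7 to 24.1 CPM in controls and 15.0 and 15.6 CPM in knockouts. The part of macrophage RNA in the fall of Csf1r was not tested.

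Of 11 genes for the release and maturation of the ligands, 1 rose and 1 fell, against 3.25% and 3.99% of all tested genes. The median log2 fold change was -0.06. Mmp9, a metalloproteinase known to release soluble KITL, fell from 680, 426 and 548 CPM in controls to 185 and 143 CPM in knockouts. Its log2 fold change was -1.75 ± 0.22 (SE, adjusted p = 0.014 by the edgeR test). Nqo1, a quinone reductase, rose by 0.95 ± 0.21 on the log2 scale (0.59 without knockout 1). Adam17, the sheddase that frees membrane-bound CSF1, stood at -0.52 ± 0.13 (adjusted p = 0.062, same test), and Rhbdf2, which brings ADAM17 to the cell surface, at 0.45 ± 0.14 (adjusted p = 0.098). Mmp9 lost its call without control 3, and Nqo1 lost it without each control, without knockout 1, without a filter on low counts, with library totals alone and with the length and GC offset.

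Of 16 genes of the JAK-STAT relay and its brakes, 2 rose and 1 fell, where 3.25% of all tested genes rose and 3.99% fell. The median log2 fold change was -0.24. Cish, a feedback inhibitor induced by STAT5, rose from 32.7, 42.9 and 38.4 CPM to 61.8 and 63.3 CPM (log2 fold change 0.72 ± 0.12, SE, adjusted p = 0.025 by the edgeR test). Socs2, another such inhibitor, rose by 0.43 ± 0.08 on the log2 scale, and Sos1, which activates RAS, fell by 0.46 ± 0.09. Jak1 stood at -0.50 ± 0.12 (adjusted p = 0.059, same test). All 3 calls were lost without each control library in turn, and Sos1 also without knockout 2, with library totals alone and with the length and GC offset.

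Of 10 other haematopoietic growth factor genes in the table, 8 were tested. Among them 0 rose and 1 fell, against 3.25% and 3.99% of all tested genes, with a median log2 fold change of 0.02. At an unadjusted p under 0.05, 2 were higher and 1 lower, where 4198 of the 15874 tested genes passed in either direction. DESeq2 called 2 higher and limma-voom 0, where they called 1248 and 546 of all tested genes higher. Lif, a cytokine of the IL-6 family, fell from 348, 298 and 297 CPM in controls to 150 and 207 CPM in knockouts (log2 fold change -0.82 ± 0.16, SE, adjusted p = 0.032 by the edgeR test). Cxcl12, a chemokine that retains haematopoietic cells, stood at 0.97 ± 0.24 (adjusted p = 0.058, same test), Il6 at 0.49 ± 0.16 and Tslp at -0.39 ± 0.17. The call of Lif did not hold without any 1 of the controls or with the length and GC offset.

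Of 13 tested genes that bridge or recognise apoptotic cells or work with protein S in coagulation, 1 rose and 2 fell. Over all tested genes 3.25% rose and 3.99% fell. The median log2 fold change of the list was -0.16. Itgb5, an integrin chain that pairs with the alpha-v chain to bind the bridging protein MFGE8, rose from 3.75, 3.35 and 2.52 CPM to 8.91 and 8.87 CPM. Its log2 fold change was 1.47 ± 0.21 (SE, adjusted p = 0.017 by the edgeR test). F2, which encodes prothrombin, fell by 1.29 ± 0.19 on the log2 scale, and the scavenger receptor gene Stab2 fell by 0.79 ± 0.10. Anxa5, which binds phosphatidylserine, stood at 0.40 ± 0.10 (adjusted p = 0.063, same test). Itgb5, F2 and Stab2 lost their calls without control 2 and without control 3, and F2 also without control 1.

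Markers of other cells that make these ligands also differed between libraries. The 10 fibroblastic reticular and mesenchymal markers summed to 363 to 517 CPM in controls, and to 1104 CPM in knockout 1 against 512 CPM in knockout 2. Most of the sum in knockout 1 was Dcn (692 CPM) and Col3a1 (213 CPM). Ccl19 (2.79 CPM), Lum (4.82 CPM) and Cxcl13 (26.0 CPM) lay within the range of the controls in that library. Among the 7 markers of pericytes or smooth muscle cells, 1 passed the test (upward), and the median log2 fold change was 1.03. They did not all rise. Rgs5, with the most reads of the list, had 74.8, 48.5 and 49.8 CPM in controls and 43.8 and 48.1 CPM in knockouts. Its log2 fold change was -0.33 ± 0.20 (SE), and that of Notch3 was -0.34 ± 0.82. The actin gene Acta2 rose from 1.87, 1.76 and 1.94 CPM in controls to 35.8 CPM in knockout 1 and 4.50 CPM in knockout 2, and Tagln stood at 2.46 to 5.00 CPM in controls and 7.69 and 6.98 CPM in knockouts without passing. Blood endothelial markers rose in 6 of 9 tested, where 3.25% of all tested genes rose. Mean Cd34 levels were 18.8 CPM in the control group and 71.9 CPM in the other. Of those not called, Plvap (means of 2688 and 3207 CPM) overlapped between the groups. Flt1 (13.5 and 29.4 CPM) lay above all controls in both knockouts, and Cdh5 (404 and 349 CPM) below them. The 7 T and B lymphocyte markers summed to 3.88 to 8.96 CPM in controls and 8.15 to 10.9 CPM in knockouts. The part of these cells in the values of the ligands was not tested.

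The genes whose levels followed each ligand most closely over the 5 libraries were taken by the distance between log2 CPM profiles centred on their mean, out of 8504 candidates. Csf1 was nearest to the myosin gene Myo1e (distance 0.07), Stxbp2 (0.08) and Rapgef6 (0.08), and Csf3 to Prrx2 (0.20) and the heat shock gene Hspa1a (0.20). Gas6 was nearest to Ptn (0.17), which encodes the growth factor pleiotrophin, Lrrc75a (0.19) and the chemokine gene Cxcl1 (0.22). Kitl was nearest to Cpxm1 (0.12), the Notch ligand gene Dll1 (0.15) and Lyst (0.16), and Csf2 to Foxn2 (0.18), Babam2 (0.19) and mt-Nd5 (0.19). Pros1 was nearest to Gdi2, Pyurf and Lrp10 (0.03 each), and Il34 to Spon1 (0.41), Htra1 (0.50) and Clca3a2 (0.61). With 5 libraries these are descriptions. Ranking by Pearson correlation in place of distance kept 1 of the 3 neighbours of Csf2 and 0 of those of the other ligands.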

How the data were processed

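Messenger RNA of sorted LECs was measured in 5 libraries. Per the labels' protocols, RNA was amplified with a SMART-Seq v4 kit, tagmented with Nextera XT and read as single 50-base reads, with no strand marking and no molecular identifiers. The deposited values are raw read counts per Ensembl gene, per the file headers. HTSeq 0.6.1, Bowtie2 2.1.0 and TopHat2 2.0.14 and the build mm10 stand in the submitters' processing notes, with bcl2fastq 2.17.1.14. Settings were not given in the sources used here. Identifiers were matched to GENCODE M21 for 27648 of 27843 genes.

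The test was run with edgeR 4.0.16 under R 4.3.3 (filterByExpr minimum count 10, TMM, robust quasi-likelihood F test in its legacy form, Benjamini-Hochberg over 15874 genes, threshold 0.05). Standard errors (SE) were derived from the log2 fold change and F. Genes were compared by level only per kb of exon. The fit was checked on simulated counts. Alternatives were other size factors and filters, DESeq2 1.42.0, limma-voom 3.58.1, a loess offset (span 0.5) for exon length and GC content, the replicate number as a block, and each library left out.

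Members and lists were chosen with earlier results of these data known. Named genes were the members, Tnfsf11, Tnfrsf11a, the called genes and the 4 smallest p of each pathway list, and the 3 nearest profiles per member (mean log2 CPM of at least 3, with a prior count of 2). Of these profiles, 1 is not reported here. Receptors that did not pass, and markers with values, were named after their values were seen. Marker sums without the receptor genes, and the Gas6 to Pros1 ratio with the longest transcript, were added after seeing the data.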

Additional observations from a re-analysis of the deposited data

How the results depend on the processing

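Of 98 alternative values for the log2 fold changes of the 7 ligands, 84 kept their direction and side of the threshold, 8 newly passed, 6 changed sign and 0 lost a call. Those that newly passed were Csf1 without a filter on low counts (-0.53), with a filter at 1 CPM (-0.52), with DESeq2 (-0.52), with limma-voom (-0.52) and without robust estimation (-0.53), Csf3 with a filter at 1 CPM and with DESeq2 (0.85 in both), and Gas6 without knockout 2 (-1.03). Accordingly 1 ligand was higher with DESeq2 and with the filter at 1 CPM, and 1 was lower in each of the 5 fits that called Csf1. Csf2 changed sign with the length and GC offset (-0.01), with the replicate block (-0.07), and without control 2 (-0.05), control 3 (-0.08) and knockout 2 (-0.13), and Gas6 without knockout 1 (0.08). With a library left out, Csf1 ranged from -0.60 to -0.44, Il34 from 0.81 to 1.42, Csf2 from -0.13 to 0.24, Csf3 from 0.66 to 1.04, Kitl from -0.67 to -0.08, Gas6 from -1.03 to 0.08 and Pros1 from 0.06 to 0.23, with 0 ligands called higher and 0 to 1 lower. Over all genes, 516 were higher and 634 lower. DESeq2 called 1248 and 1459, the length and GC offset 406 and 347 (53.9% higher against 44.9%), and leaving out a library 2 to 784 and 9 to 1125. The replicate numbers link nothing in the labels. Deviations from the group means of same-numbered libraries correlated at 0.05 (number 1) and -0.05 (number 2). With 2 knockouts, the deviations of 1 mirror those of the other, so these are not separate results. With the number as a block, 0 genes were called in either direction, so every list count was 0, against 2808 genes at an unadjusted p under 0.05. In the release and maturation list, the 1 higher gene became 0 with library totals, without a filter and with the length and GC offset, and 2 with DESeq2. Its 1 lower gene became 2 without a filter and with DESeq2. In the JAK-STAT list, the 1 lower gene became 3 without a filter, 5 with DESeq2, 2 with limma-voom and 0 with the offset. Among other growth factors, 1 was higher with the filter at 1 CPM and with the offset and 2 with DESeq2, and 0 were lower with the offset. In the bridging list, 2 were higher without a filter and 3 with DESeq2. With a library left out, receptors ranged from 0 to 5 lower, release genes from 0 to 1 higher and 0 to 2 lower, JAK-STAT genes from 0 to 2 higher and 0 to 3 lower, other growth factors from 0 to 1 lower, and bridging genes from 0 to 2 higher and 0 to 2 lower. With the longest transcript as length, levels per kb were 345 and 240 for Csf1 and 202 and 224 for Pros1 in controls and knockouts, and 1.47 for Il34 in knockouts. The cause of these changes was not tested, and depth limits Il34, with 38 to 150 reads a library.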

Other observations

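Of the ratios between ligands, 2 that separated the groups were picked out after the values were seen. Per kb of exon, Csf1 stood at 0.715, 0.921 and 0.820 times the level of Csf3 in controls 1, 2 and 3 and at 0.342 and 0.285 times in knockouts 1 and 2. Of this pair, 1 was higher and 1 lower in the knockouts. Csf3 exceeded Csf2, another gene of chromosome 11, by 3.88-, 3.47- and 4.49-fold in controls and by 6.80- and 7.01-fold in knockouts. No test was run on these ratios.

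Mpo, a granule enzyme gene of myeloid precursors, had 434 reads in control 3 and 0 to 8 reads in the other libraries. Elane, a neutrophil elastase gene, had 49 reads in control 3 and 0 to 3 elsewhere. These genes were picked out after their values were seen. S100a8 and S100a9, which mature neutrophils express strongly, had 0 reads each in control 3.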
